A study of Mus musculus with 8 samples.

Results

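The proteasome is the protease that degrades proteins marked with ubiquitin. Its 20S core is a barrel of alpha rings, which gate the entrance, around beta rings, of which Psmb5, Psmb6 and Psmb7 encode the proteolytic subunits. The 19S cap recognizes, deubiquitinates, unfolds and feeds substrates into the core, and assembly chaperones build both parts. Under interferon, and constitutively in many immune cells, the inducible subunits Psmb8, Psmb9 and Psmb10 replace their constitutive counterparts to form the immunoproteasome, which together with the activator encoded by Psme1 and Psme2 is known for making peptides for antigen presentation. In muscle the ubiquitin-proteasome system is known for protein breakdown during atrophy, and MuSCs depend on it for maintenance.

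The genes described here were the 50 protein-coding mouse genes whose Ensembl 96 symbols begin with Psma, Psmb, Psmc, Psmd, Psme, Psmf or Psmg followed by a number, out of 22028 protein-coding genes and 36047 genes of all kinds with a transcript in the files. They held 19 genes of the 20S core (8 of the alpha ring, 7 of the constitutive beta ring and 4 immuno or thymic beta subunits), 17 of the 19S cap (9 of the base and 8 of the lid), 6 activators and inhibitors and 7 assembly chaperones. The symbol rule also took in Psmc3ip, a meiotic recombination factor named for its binding to Psmc3, which is not a proteasome part. All 50 passed the filter on low counts, Psma8 only through the control mice, so that it had to differ, and counts are also given without it.

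RNA was sequenced from GFP+ muscle stem cells (MuSCs) sorted from the gastrocnemius and quadriceps of male Pax7CreERT2-Rosa26nTnG (Pax7-nTnG) mice, 5 to 6 months old, after tamoxifen. In these mice a Cre driven by Pax7 switches the nuclear label from tdTomato to GFP, so the label marks cells that expressed Pax7 when tamoxifen was given and their progeny. The VA-free group, 3 mice, had received a diet without vitamin A (VA) for 8 weeks, and the control group, 2 mice, had received normal chow, so the groups may differ in more than VA. The comparison asks how MuSC transcripts differ when VA is withheld. The RNA of a mouse had been split into technical replicates A and B, and the 8 libraries used here were both of each mouse except that VA-free mouse 1 had only B and VA-free mouse 2 only A. Each library is named by diet, mouse and letter, and held between 44831232 and 88650428 estimated counts. The spread within the control diet therefore rests on a single difference between animals.

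Libraries and markers set limits that touch every result below. Control 2A stood apart from its partner: the chi-square per gene between 2A and 2B of the same mouse was 593, against 51.6 between control 1A and 1B and 10.6 between VA-free 3A and 3B. All 10 MuSC markers were higher on the VA-free diet, with summed levels of 6195 to 7075 CPM (counts scaled to library size) per library against 1982 to 4143 on the control diet. All 12 endothelial markers were lower (300 to 390 against 1289 to 3530 CPM), as were 4 of 14 macrophage and monocyte markers (24.7 to 159 against 192 to 948 CPM) and 4 of the 7 lymphocyte markers tested (1.49 to 2.47 against 3.22 to 7.09 CPM). Of the other lists, 7 of 10 fibro-adipogenic progenitor markers were lower and 1, Col3a1, was higher (summed 11590 to 12660 against 3893 to 9717 CPM), 5 of 8 pericyte markers (890 to 1143 against 2716 to 3274 CPM), 6 of 7 Schwann markers (504 to 539 against 1015 to 1311 CPM), 4 of 5 tenocyte markers (38.3 to 62.3 against 591 to 1065 CPM) and 5 of 10 myofiber markers (334 to 428 against 481 to 611 CPM) were lower. By the same test, described below, 22.5% of all genes tested were lower and 18.9% higher. The only defining markers at 0 in every VA-free library were 2 of the lymphocyte list. The part of these cell types in the results was not tested, and in bulk RNA fewer cells of a type and less RNA per cell cannot be told apart.

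Proteasome subunit transcripts were mostly lower on the VA-free diet. Of the 50 genes, 42 were lower, 2 (Psmd3 and Psme4) were higher and 6 did not pass the test (Psmd1, Psmd2, Psmd13, Psme3, Psmd9 and Psmb11), by edgeR's quasi-likelihood test at a Benjamini-Hochberg adjusted p under 0.05 over the 17997 genes tested. Over all these genes 22.5% were lower and 18.9% higher. As log2 fold change (VA-free over control), the median of the 50 genes was -0.79, a level 1.73-fold lower, against 0.003 over all genes tested. Without Psma8, 41 of 49 were lower and the median was -0.78. CPM values of VA-free and control mice were fully apart for 46 of the 50, beside 63.3% of all genes tested. Groups differed in size: the median was -1.08 for the alpha ring and -1.06 for the beta ring, -0.66 for the 19S base and -0.53 for the 19S lid.

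Change followed transcript length in these libraries, and the proteasome genes are short. Their median transcript length was 1261 bases against 2159 over all genes tested, and the Spearman correlation of length with log2 fold change was 0.371 across the 17997 genes and 0.572 across the 50, as a description across genes that share libraries. Among genes of 1000 to 2000 bases the median log2 fold change was -0.76 for the 31 proteasome genes and -0.30 for all 5548, and under 1000 bases it was -1.17 for 13 and -0.74 for 2668. The few longer proteasome genes were not set apart in this way. From 2000 to 3000 bases the median was 0.16 for 4 and 0.13 for 4485, and from 3000 bases 0.43 for 2 and 0.51 for 5296. When the length trend of each mouse was removed, 16 of the 50 were lower and 3 higher (Psmd3, Psmd13 and Psmd9), beside 13.7% and 21.6% of all genes. The median was then -0.21, against a median of all genes shifted to 0.19, which is 0.40 below it. The 16 were Psma1, Psma2, Psma5, Psma7, Psma8, Psmb1, Psmb2, Psmb3, Psmb6, Psmb8, Psmb9, Psmb10, Psmc2, Psme2, Psme2b and Psmd10. Without Psma8 they were 15, of which 11 belong to the 20S core and 1, Psmc2, to the 19S cap.

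**Figure D1:**
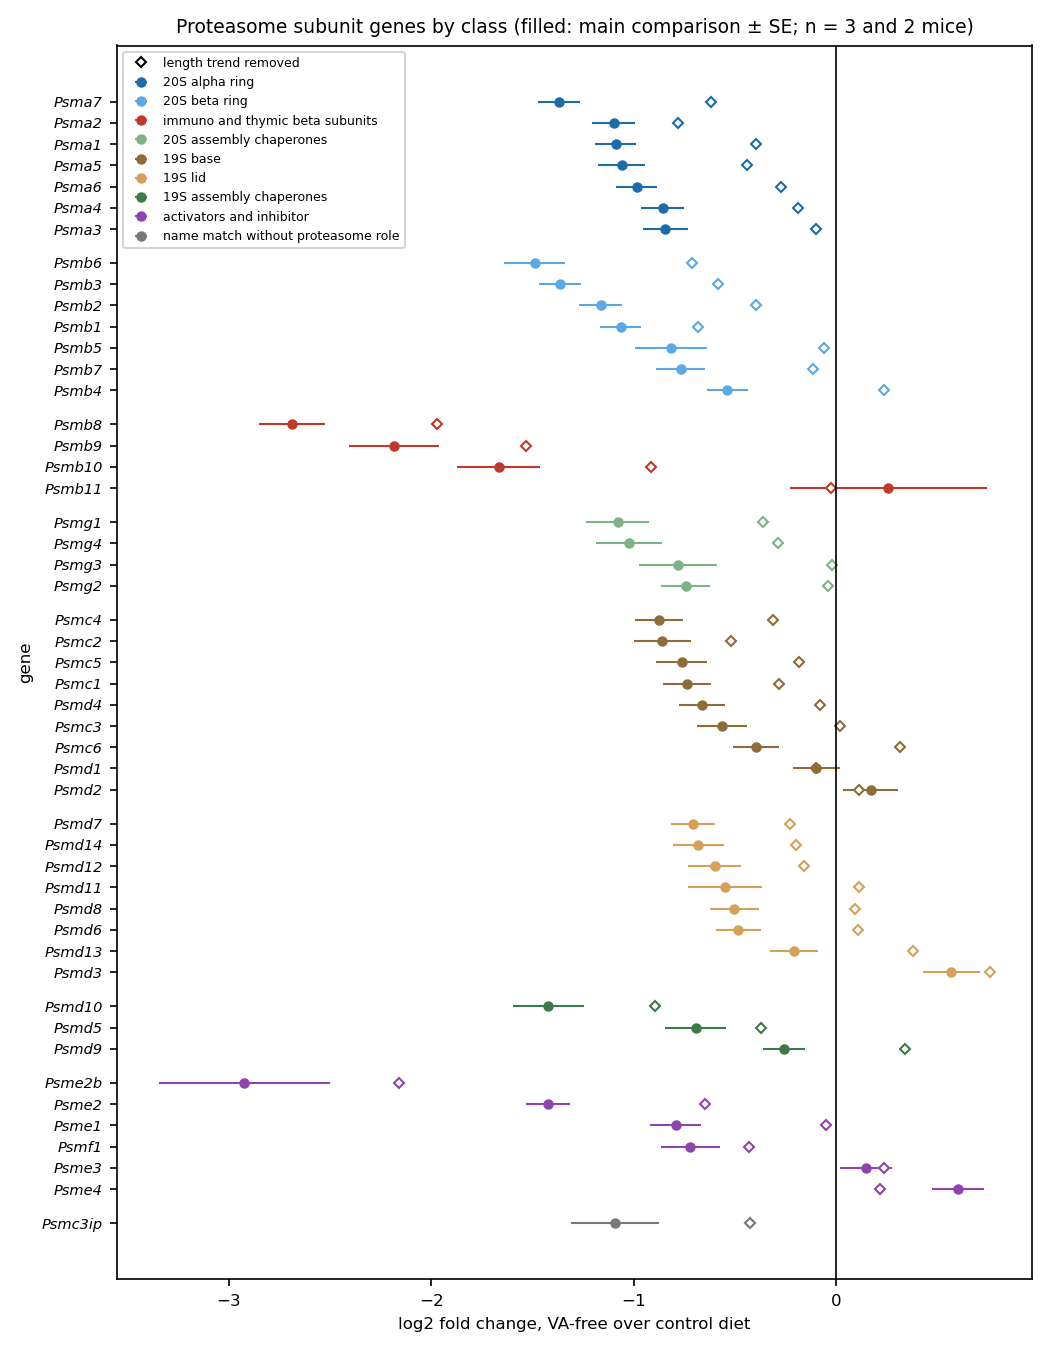
Log2 fold change (VA-free over control diet) of 49 proteasome subunit genes, grouped by class, with filled points ± SE from the main comparison of 3 and 2 mice and open diamonds for the fit with the length trend removed (Psma8, near 0 counts, is not drawn). The 20S rings lie between -1.49 and -0.54, Psmb8, Psmb9 and Psmb10 further to the left, and most 19S genes near 0 once the length trend is removed.

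**Figure D2:**
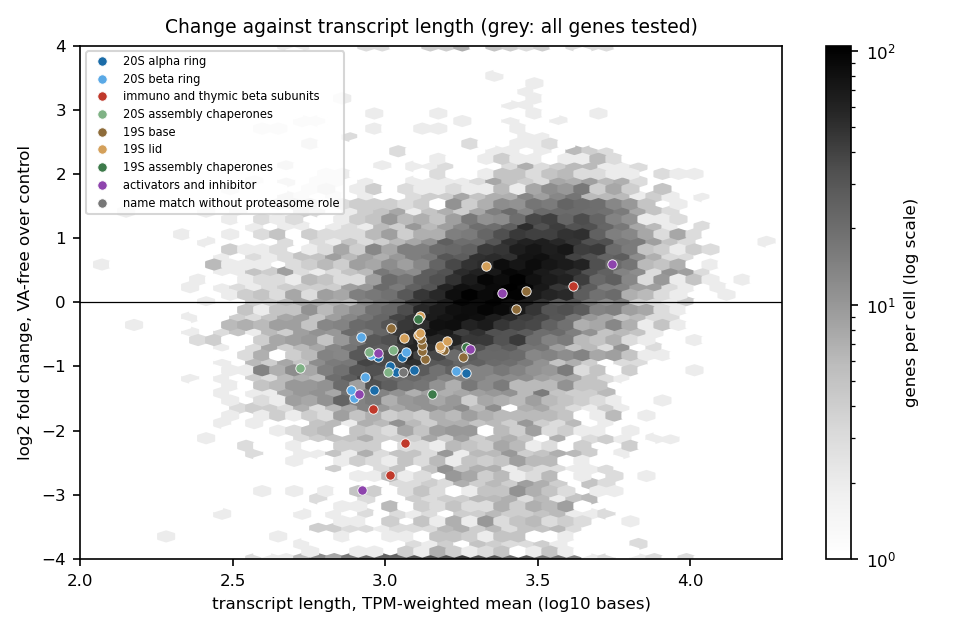
Log2 fold change against transcript length (log10 bases, mean of a gene's transcripts weighted by TPM) for all 17997 genes tested (grey, clipped at 4 and -4) and the proteasome genes (colored by class, Psma8 not drawn). The grey cloud rises with length, and Psmb8, Psmb9 and Psmb10 sit below genes of like length.

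The promoters of the genes were compared for 3 short motifs that are known binding sequences of regulators of this gene family. Promoters of RefSeq (GRCm38.p6, 250 bases before to 50 after the start site) matched 42 of the 50 genes, with 45 promoters. The core of the antioxidant response element, TGACNNNGC, bound by the factor encoded by Nfe2l1, lay on either strand in 6 of the 45 promoters (13.3%), beside 12.4% of all 32851 promoters of the table. CCAAT, bound by NF-Y, lay in 15 of 45 (33.3%) beside 37.4%, and GAAANNGAA, a core of the interferon response element, in 7 of 45 (15.6%) beside 8.56%. The 7 genes with the interferon core were Psmb4, Psmd4, Psmc2, Psmd9, Psmb3, Psmg4 and Psme1, and Psmb8, Psmb9, Psmb10 and Psme2 had none in this window. The promoters of the genes that the results below turn on and that hold one of these motifs are printed from 80 bases before to 30 after the start site, 5′ to 3′ on the gene's strand, with the motif in capitals. Psmb5, Psmb6 and Psme4 hold the antioxidant core, Psmb9 a CCAAT and Psme1 the interferon core. In Psmb9, Psme1 and Psme4 the capitals show the reverse complement of the motif.
Psmb5 (chr14:54617966-54618075, minus strand): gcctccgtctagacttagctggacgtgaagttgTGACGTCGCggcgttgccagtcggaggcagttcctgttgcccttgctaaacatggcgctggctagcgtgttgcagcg
Psmb6 (chr11:70525277-70525386, plus strand): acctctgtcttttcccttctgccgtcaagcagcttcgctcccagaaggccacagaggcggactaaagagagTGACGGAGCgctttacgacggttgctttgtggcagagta
Psme4 (chr11:30771695-30771804, plus strand): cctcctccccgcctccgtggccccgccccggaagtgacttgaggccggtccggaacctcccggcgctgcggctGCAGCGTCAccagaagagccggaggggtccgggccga
Psmb9 (chr17:34187301-34187410, minus strand): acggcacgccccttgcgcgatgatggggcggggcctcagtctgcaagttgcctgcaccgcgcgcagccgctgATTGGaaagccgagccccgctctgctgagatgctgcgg
Psme1 (chr14:55578414-55578523, plus strand): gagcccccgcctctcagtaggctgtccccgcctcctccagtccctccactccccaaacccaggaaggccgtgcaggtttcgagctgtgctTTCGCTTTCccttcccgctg
In the main comparison Psmb5 and Psmb6, which hold the antioxidant core, were lower and Psme4, which also holds it, was higher. With the length trend removed neither Psmb5 nor Psme4 passed the test. The part of the motif was not tested. The other genes with this core were Psmd12 and Psmc6, lower, and Psmd9, not called. No promoter was matched for Psma8, Psmb1, Psmb2, Psmb7, Psmc3, Psmd3, Psmd7 and Psmg2.

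The immunoproteasome subunits fell most among genes of the 20S core with more than trace counts. Psmb8, the inducible counterpart of the chymotrypsin-like subunit Psmb5, was at 16.7, 20.2 and 17.9 CPM in VA-free mice 1 to 3 and at 135 and 100 CPM in control mice 1 and 2. The diets were far apart, with all VA-free mice low and control mouse 1 the highest, at a log2 fold change of -2.69 ± 0.16 (SE) and an adjusted p of 0.00023 (edgeR quasi-likelihood). Psmb9, which replaces the caspase-like Psmb6, was at 9.07, 8.43 and 8.39 CPM against 48.8 and 29.8 CPM. Its levels did not overlap, and the log2 fold change was -2.19 ± 0.22 (edgeR adjusted p = 0.00056). Psmb10, which replaces the trypsin-like Psmb7, was at 22.1, 28.5 and 22.1 CPM against 92.7 and 61.4 CPM. It was again low in every VA-free mouse, with a log2 fold change of -1.67 ± 0.21 (edgeR adjusted p = 0.0011). All 3 passed the test in all 27 alternative fits, and with the length trend removed their log2 fold changes were -1.97, -1.53 and -0.91. Psmb11, the beta subunit of thymic epithelium, rested on 22.1 to 78.5 counts per library, and its log2 fold change was 0.26 ± 0.49, which did not pass the test (-0.03 with the length trend removed).

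Immunoproteasome genes are known to be expressed in endothelial, macrophage and lymphocyte cells, whose part was not tested. As given above, all 12 endothelial markers, 4 of 14 macrophage and monocyte markers and 4 of the 7 lymphocyte markers tested were lower. Over all genes tested 22.5% were lower. In control 1A, 1B, 2A and 2B the endothelial markers summed to 3216, 3530, 1289 and 2248 CPM and the macrophage markers to 220, 192, 948 and 706 CPM. Psmb8 was at 148, 110, 132 and 78.0 CPM in these libraries, an order that followed neither sum. Psmb9 was at 46.5, 48.0, 28.7 and 32.7 CPM, in the same order as the endothelial sums. Psmb10 was at 91.7, 87.3, 76.0 and 52.3 CPM, higher in both libraries of mouse 1. The endothelial, pericyte, Schwann and tenocyte sums were also higher in both libraries of mouse 1. The macrophage, lymphocyte and myofiber sums were higher in both libraries of mouse 2. Within each control mouse Psmb8 and Psmb10 were higher in library A, which held the lower endothelial and the higher macrophage sum. Psmb9 was higher in library B. Libraries A and B are technical replicates of a mouse's RNA, and none of these orders was tested. The lymphocyte markers summed to 4.53, 3.22, 6.24 and 7.09 CPM in these libraries, higher in mouse 2. Without control 2A the median of the 4 immuno and thymic subunits was -1.91, close to the -1.93 with it.

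The constitutive proteolytic subunits fell less. Psmb5 was at 83.1, 81.3 and 91.4 CPM on the VA-free diet and at 180 and 120 CPM on the control diet, with no overlap and a log2 fold change of -0.82 ± 0.18 (edgeR adjusted p = 0.010). Its call was lost without control 2B (edgeR adjusted p = 0.059), its value was -0.50 without control mouse 1, and it shared 65.7% of its 31-base words with other genes, chiefly a processed pseudogene, so its counts are uncertain. Psmb6 was at 190, 199 and 205 CPM against 471 and 641 CPM, the largest fall of the constitutive rings (-1.49 ± 0.15, edgeR adjusted p = 0.00057). In control 2A it reached 1063 CPM, against 307 CPM in control 2B, and without 2A its log2 fold change was -0.98. Psmb7 was at 70.3, 66.8 and 69.5 CPM against 129 and 106 CPM. Its diets did not overlap either, at -0.77 ± 0.12 (edgeR adjusted p = 0.0028). With the length trend removed Psmb5 and Psmb7 were at -0.06 and -0.12 and did not pass the test (edgeR adjusted p = 0.82 and 0.52), whereas Psmb6 did at -0.71 (edgeR adjusted p = 0.013).

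On the TPM scale, a relative level per transcript length, the inducible subunits made up a smaller share of each pair on the VA-free diet. Psmb8 held 15.4% ± 1.77 (SD, n = 3) of the summed TPM of Psmb8 and Psmb5 in VA-free mice and 40.3% ± 1.53 (n = 2) on the control diet. Psmb10 held 31.6% ± 4.83 of its sum with Psmb7 against 45.9% ± 4.09, and Psmb9 held 2.69% ± 0.287 of its sum with Psmb6 against 4.95% ± 2.43. In each of the 3 shares, VA-free and control mice were fully apart. By library the Psmb9 share did overlap, since it was 1.92% in control 2A, below the 2.27% to 3.02% of the VA-free libraries, whereas the other control libraries lay between 6.09% and 7.30%. The Psmb10 share was 36.3% in control 2B, below the 37.2% of VA-free 2A. For Psmb8 the libraries did not overlap, at 13.9% to 17.4% against 33.1% to 50.7%. These shares were compared as descriptions, with no test.

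**Figure D3:**
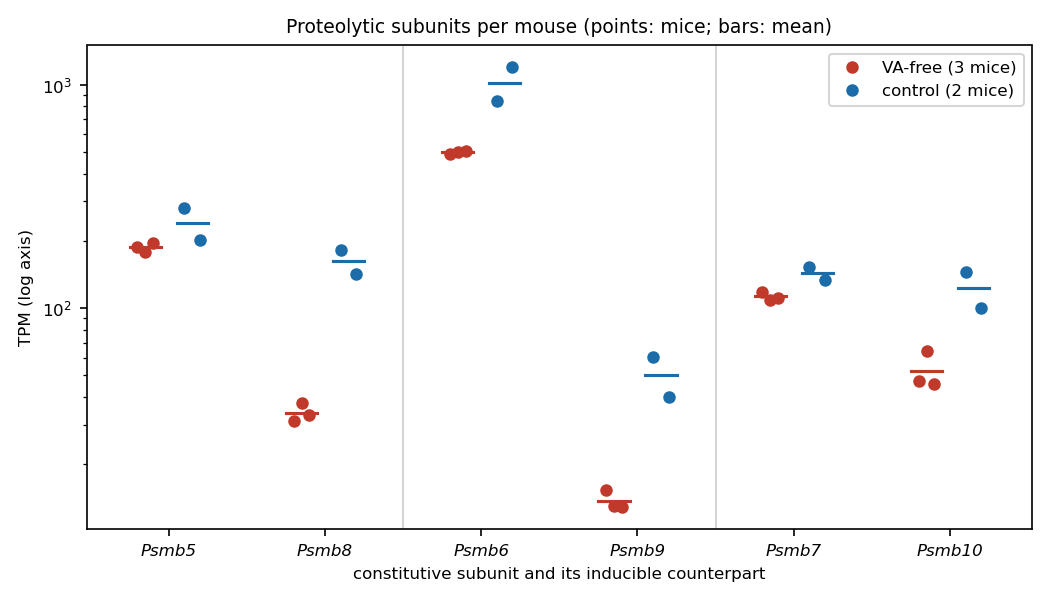
TPM (log axis) of the constitutive proteolytic subunits and their inducible counterparts in each mouse, with points for mice and bars for the mean of 3 VA-free and 2 control mice. The gap between diets is wider for Psmb8, Psmb9 and Psmb10 than for Psmb5, Psmb6 and Psmb7.

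The rest of the 20S rings fell together. All 14 constitutive subunits expressed in somatic cells were lower, at log2 fold changes from -1.49 (Psmb6) to -0.54 (Psmb4), with a median of -1.06, that is 2.09-fold lower. With the length trend removed 8 of the 14 were lower and none higher, and Psmb4 turned to 0.23, which did not pass the test (edgeR adjusted p = 0.12). In the alpha ring Psma7 fell most, from 338 and 351 CPM in control mice to 131, 132 and 137 CPM on the VA-free diet. Its mice lay close together within each diet, and the log2 fold change was -1.37 ± 0.10 (edgeR adjusted p = 0.00027). Psma1, Psma2, Psma3, Psma4, Psma5 and Psma6 lay between -1.10 and -0.84. Of the beta subunits without a proteolytic site, Psmb3 was at -1.37, Psmb2 at -1.16 and Psmb1 at -1.06. Psma5 shared 58.7% of its 31-base words with other genes, and Psmc1 and Psmd2 of the 19S base 32.2% and 31.6%, chiefly with processed pseudogenes, so their counts are uncertain too. Outside these, Psmb5, Psme2 and Psme2b no member shared more than 21.8%.

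Psma8, the germ cell counterpart of Psma7, had no count in any VA-free library and 29, 0, 6 and 16 counts in control 1A, 1B, 2A and 2B. A floor of 3 counts over the VA-free group would put its level 20.1-fold lower, from 51 control counts. This value covers counting error only and is not a bound, since the control libraries of 1 mouse differed as much as 29 and 0. Psma8 passed the filter only through the control mice, so its fall was fixed in advance and its call carries no weight. The call was lost without control mouse 1 (edgeR adjusted p = 0.050, just over the threshold), and the 29 counts of control 1A lay on transcripts marked for nonsense-mediated decay. Setting Psma8 at the value from the floor left the alpha ring median at -1.08 and the median of the 50 genes at -0.79.

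The chaperones that assemble the 20S core fell with it. Psmg1, which with Psmg2 guides alpha ring assembly, was at 23.7, 18.6 and 20.4 CPM against 40.4 and 48.2 CPM, with no overlap and a log2 fold change of -1.08 ± 0.16 (edgeR adjusted p = 0.0020). Psmg2 was at 28.8, 27.2 and 27.4 CPM against 49.3 and 43.9 CPM (-0.74 ± 0.12). Psmg4 was at 12.6, 12.5 and 13.4 CPM against 29.1 and 22.9 CPM (-1.02 ± 0.16), and its partner Psmg3 at 8.94, 7.34 and 7.52 CPM against 15.03 and 12.3 CPM (-0.78 ± 0.19). All 4 were higher in both control mice than in any VA-free mouse. With the length trend removed none of the 4 passed the test (median -0.17), and the call of Psmg3 did not hold when VA-free mouse 2, VA-free mouse 3 or control mouse 1 was left out (edgeR adjusted p = 0.061, 0.064 and 0.055). Pomp, the maturation factor of the 20S core, whose symbol lies outside the rule, fell from 159 and 179 to 60.4, 61.4 and 58.4 CPM (-1.49 ± 0.11, edgeR adjusted p = 0.00026).

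The 19S cap fell less than the core, and Psmd3 rose. Of its 17 genes 13 were lower, 1 higher and 3 not called, at a median of -0.56, 1.48-fold lower. The split was 1 lower and 2 higher with the length trend removed, when the medians of base and lid were -0.10 and 0.10, a reversed sign for the lid. Both medians still lay below that of all genes tested, which was 0.19 in that fit. In the base Psmc4, an ATPase that unfolds substrates, fell most, from 198 and 236 to 119, 115 and 121 CPM (-0.88 ± 0.12, edgeR adjusted p = 0.0016), with no overlap. The other ATPases Psmc1, Psmc2, Psmc3, Psmc5 and Psmc6 lay between -0.86 and -0.40, and the ubiquitin receptor Psmd4 at -0.66. Psmc3 (0.02) and Psmc6 (0.31) turned to values above 0 with the length trend removed, neither past the test, and Psmc6 lost its call without any 1 of 6 mice or libraries (edgeR adjusted p from 0.068 to 0.13). The call of Psmc3 was lost without control 2A (-0.31, edgeR adjusted p = 0.072) or 2B (-0.88, edgeR adjusted p = 0.056). The scaffold genes Psmd1 and Psmd2, among the longest of the cap, were at -0.10 ± 0.12 and 0.17 ± 0.14 and did not pass the test. Psmd1 changed sign without control 2A (0.02), and without it Psmd2 passed the test at 0.34 (edgeR adjusted p = 0.033), while without 2B Psmd2 was at -0.08.

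In the lid Psmd7 fell most, from 176 and 193 to 117, 109 and 112 CPM (-0.71 ± 0.11, edgeR adjusted p = 0.0024). Its partner Psmd14, the deubiquitinase of the cap, followed at -0.68 ± 0.13. Psmd6, Psmd8, Psmd11 and Psmd12 lay between -0.60 and -0.48, Psmd13 was at -0.21 and did not pass the test. With the length trend removed Psmd6, Psmd8, Psmd11 and Psmd13 turned to 0.11, 0.09, 0.11 and 0.38, of which Psmd13 passed the test. The median of all genes tested was 0.19 in that fit, above Psmd6, Psmd8 and Psmd11. The calls of Psmd11 and Psmd12 rested on control 2A, without which they were at -0.13 and -0.29 (edgeR adjusted p = 0.36 and 0.080). Both calls were also lost without 2B, at -0.98 and -0.96 (edgeR adjusted p = 0.099 and 0.056), and Psmd11 moved to -0.83 without control mouse 1 and to -0.22 without control mouse 2. Psmd11 was not called without control 1A or any 1 of the VA-free mice either. Psmd6 lost its call without VA-free mouse 2 or control 2B (edgeR adjusted p = 0.056 and 0.053), and Psmd8 without any 1 of the VA-free mice (edgeR adjusted p from 0.052 to 0.059). Psmd13 was at -0.35 without control mouse 1, a fit that leaves a single control mouse. Psmd3, a lid scaffold, was at 177, 163 and 191 CPM in VA-free mice against 132 and 106 CPM in control mice, at 0.57 ± 0.14 (edgeR adjusted p = 0.017). All VA-free mice were above both control mice, but its level in control 2A was 56.0 CPM against 119 to 158 CPM in the other control libraries. Without 2A the log2 fold change was 0.28 and did not pass the test (edgeR adjusted p = 0.12), and without 2B it was 0.89 (edgeR adjusted p = 0.13). The call also did not hold without VA-free mouse 1 or 3, control mouse 2 or control 1A (edgeR adjusted p from 0.052 to 0.063).

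Summed per transcript length, the 14 constitutive 20S subunits were at 3369, 3178 and 3265 TPM on the VA-free diet and at 4928 and 5433 TPM on the control diet. The 17 genes of the 19S cap were at 3038, 2862 and 2883 TPM against 2670 and 3294 TPM. The 20S sums thus separated the diets and the 19S sums overlapped. The ratio of the former to the latter was 1.12 ± 0.013 (SD, n = 3) in VA-free mice and 1.75 ± 0.139 (n = 2) in control mice. TPM does not remove the trend of change with length. The median transcript length was 994 bases for these 20S subunits and 1349 for the 19S cap, and the part of length in the ratio was not tested. By library the ratio was 1.10 to 1.17 on the VA-free diet and 1.53 to 1.85 on the control diet, lowest in control 2B. The summed TPM of the 4 immuno and thymic subunits was 94.0, 115 and 92.2 against 388 and 282. TPM shifted the median of all genes by 0.32 on the log2(TPM + 1) scale, and relative to that shift the 48 proteasome genes with a value lay 0.68 lower. By the limma test on that scale 23 of the 48 were lower and 5 higher, beside 16.6% and 39.7% of all 14729 genes tested.

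**Figure D4:**
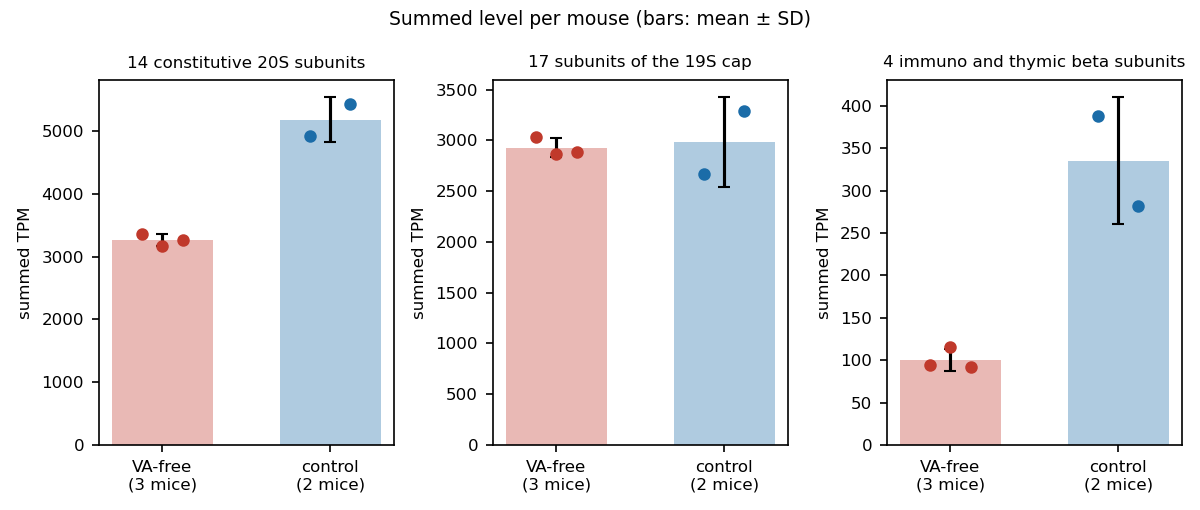
Summed TPM per mouse of the constitutive 20S subunits, the 19S cap and the immuno and thymic beta subunits, with points for mice and bars for the mean ± SD of 3 VA-free and 2 control mice. The diets are apart in the left and right panels and overlap in the middle one.

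The activators of the 20S core went in both directions. Psme2, which with Psme1 forms the interferon-inducible activator ring, was at 76.6, 86.0 and 78.9 CPM against 218 and 214 CPM (-1.42 ± 0.11, edgeR adjusted p = 0.00029). Psme1 was at 56.3, 70.3 and 62.0 CPM against 113 and 105 CPM (-0.79 ± 0.13, edgeR adjusted p = 0.0029). Both were lower in every VA-free mouse, and with the length trend removed only Psme2 of this pair passed the test (-0.65, against -0.05 for Psme1). The 2 genes lie close together, at chr14:55578123-55581529 and chr14:55587441-55591113 (GRCm38). Psme2b, at 1.06, 0.449 and 1.19 CPM against 6.69 and 7.13 CPM (-2.92 ± 0.42), shared 76.5% of its 31-base words with Psme2 (33.5% of those of Psme2), so that its counts cannot be told apart from those of Psme2 with certainty. Psme4, a large nuclear activator known from chromatin and spermatogenesis, rose, with 69.2, 57.0 and 59.5 CPM against 41.7 and 39.9 CPM. All VA-free mice were above both control mice, at 0.60 ± 0.13 (edgeR adjusted p = 0.0097), but Psme4 is the longest of the genes, at 5548 bases, and it was at 0.22 with the length trend removed and did not pass the test. Psme3, the nuclear activator of ubiquitin-independent degradation, was at 116, 112 and 104 CPM against 90.1 and 110 CPM, which overlapped (0.15 ± 0.13). It was at 0.39 without control 2A, where it passed the test (edgeR adjusted p = 0.031), and at -0.16 without 2B. The inhibitor Psmf1 was at 31.1, 32.0 and 36.1 CPM against 48.1 and 61.1 CPM (-0.72 ± 0.15, edgeR adjusted p = 0.0078), a call that was lost without control 2A (-0.34, edgeR adjusted p = 0.12). Without 2B it was at -1.13.

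Of the chaperones of the 19S base, Psmd10, also known as the oncoprotein gankyrin, fell from 13.8 and 15.6 CPM to 5.48, 5.204 and 5.77 CPM (-1.42 ± 0.18, edgeR adjusted p = 0.0011) and kept the call with the length trend removed (-0.90). Psmd5 was at 71.5, 60.8 and 60.01 CPM against 90.2 and 117 CPM (-0.69 ± 0.15), and its call was lost without control 2A (-0.31, edgeR adjusted p = 0.15) or 2B (-1.11, edgeR adjusted p = 0.052). Psmd9 was at 48.5, 49.3 and 49.5 CPM against 59.6 and 57.8 CPM (-0.26 ± 0.10), which did not pass the test, and turned to 0.34 with the length trend removed, where it did (edgeR adjusted p = 0.044). Without control 2A it was at -0.31 and was called (edgeR adjusted p = 0.041). The diets did not overlap for any of these 3 genes. Psmc3ip, outside the proteasome, was at -1.09 ± 0.22, and its call was lost without control 2A (-0.71, edgeR adjusted p = 0.073).

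**Figure D5:**
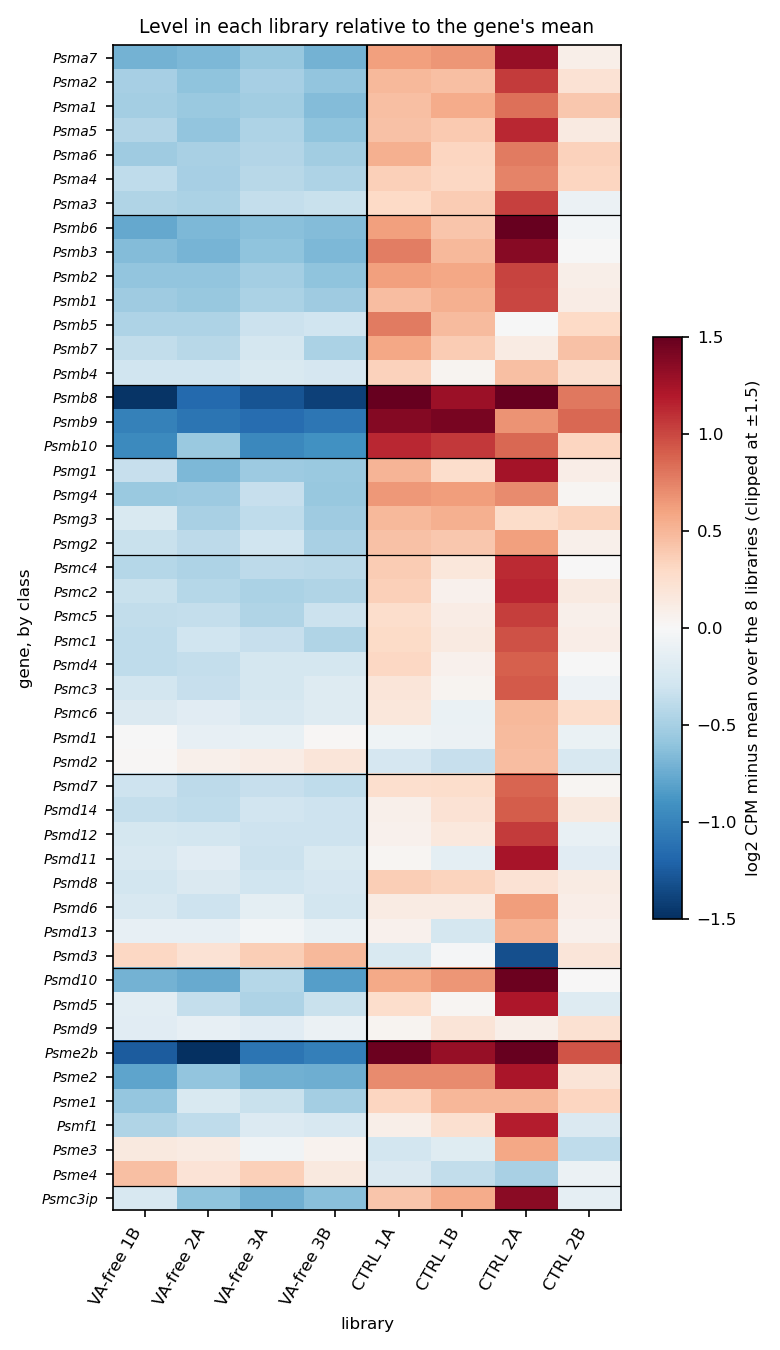
Level of 48 proteasome genes in each of the 8 libraries, as log2 CPM minus the gene's mean over libraries, ordered by class (Psma8 and Psmb11, with few counts, are not drawn). Control 2A is darker red than the other control libraries for most genes but blue for Psmd3, and the 4 VA-free libraries look alike.

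Part of the counts lay on transcripts that encode no full protein. Transcripts marked as retained intron held 16.5% to 28.5% of the Psmb9 counts in the VA-free libraries and 5.91% to 7.32% in the control libraries, without overlap. Its share on transcripts marked for nonsense-mediated decay went the other way (27.0% to 45.1% against 45.8% to 53.6%), and that of the protein-coding Psmb9-204 overlapped (36.7% to 46.9% against 37.2% to 44.2%). Of 33 genes with retained-intron counts, 15 had a higher share in every VA-free library than in any control library, beside 17.9% of 7871 such genes tested. They were Psma1, Psma7, Psmb3, Psmb6, Psmb7, Psmb9, Psmc2, Psmc4, Psmd3, Psmd4, Psmd6, Psmd8, Psme1, Psmf1 and Psmg3, of which Psmd3 alone was higher on the VA-free diet and the other 14 lower. Of all 33 genes with retained-intron counts 28 were lower, so the 14 are near that share. Psmd4 had 8.44% to 11.1% against 1.54% to 3.58%, and Psmb6 12.2% to 13.9% against 6.77% to 9.04%. Psmd5 alone had a lower share in every VA-free library, at 26.1% to 27.5% against 35.5% to 41.2%, beside 3.38% of such genes. Over the counts of all genes tested retained introns held 4.41% to 4.72% on the VA-free diet and 3.58% to 3.67% on the control diet, and over the proteasome genes 6.34% to 7.02% and 5.70% to 6.59%, which overlapped. For Psma3 the transcript Psma3-204, the protein-coding one with the highest counts, held 7.05% to 16.8% of the counts. These shares are Kallisto's division of reads among transcripts that overlap and are a description. When protein-coding transcripts alone were counted, 37 genes were lower and 2 higher, of 49 with a value.

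Neighbors and partners of the proteasome did not share one direction. The genes Tap1 and Psmb9 run in opposite directions and overlap at their 5′ ends (4.79% of the 31-base words of Psmb9), with Psmb9 at chr17:34181987-34187764, Tap1 at chr17:34187553-34197225 and Psmb8 next to it at chr17:34197721-34201454, beside Tap2. Tap1, a subunit of the peptide transporter of antigen presentation, was at 89.2, 89.03 and 91.6 CPM against 88.4 and 68.2 CPM (0.20 ± 0.14), and did not pass the test, while Psmb8 and Psmb9 on either side fell. Without control mouse 1, which leaves a single control mouse, Tap1 was at 0.40. Of 12 antigen-processing genes 4 were lower and 1 higher, beside 22.5% and 18.9% of all genes tested. B2m, the light chain of MHC class I, fell most (-2.14 ± 0.23, edgeR adjusted p = 0.00065) ahead of H2-D1 (-0.99, a call lost without control 2B and, at -0.58, with the length trend removed), and Nlrc5, an activator of MHC class I genes, rose (1.23, a call lost without control 2A).

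Among 12 other proteasome parts and partners 4 were lower and 5 higher. Over all genes tested, beside which this list and the next stand, 22.5% were lower and 18.9% higher. Beside Pomp, the lid subunit Sem1 fell (-1.17 ± 0.15), whereas the nuclear importer Ipo9 (0.88) and the scaffold Ecpas (0.83) led the 5 that rose. Of 12 genes of proteasome gene regulation 5 were higher and 1 lower. Ddi2, the protease that releases the factor encoded by Nfe2l1, rose most (1.07 ± 0.15), followed by the partner Mafk (0.86), and the NF-Y subunit Nfyb fell (-0.33, 0.01 with the length trend removed). Its call was lost in 8 fits without 1 mouse or library. Nfe2l1 itself, chosen after its values were seen, was at 210, 212 and 215 CPM against 154 and 99.3 CPM (0.74 ± 0.19, edgeR adjusted p = 0.019). Control 2A held 34.0 CPM of it and the other control libraries 134 to 167 CPM, and its call did not hold without control 1A, control 2B (1.16, edgeR adjusted p = 0.21), VA-free mouse 1 or VA-free mouse 3. It was at 0.41 without control 2A, where it passed the test. Without control mouse 2, which leaves a single control mouse, it was at 0.45.

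Of 5 ubiquitin and E1 genes 2 were lower and 2 higher. Beside this list and those that follow, 22.5% of all genes tested were lower and 18.9% higher. Ubb fell from 7407 and 12502 to 3037, 3372 and 3726 CPM (-1.56 ± 0.23, edgeR adjusted p = 0.0020), with 21827 CPM in control 2A and a log2 fold change of -0.88 without it. The activating enzymes Uba1 (0.72) and Uba6 (0.73, a call lost without any 1 of the VA-free mice, control mouse 1, 1A or 2B, or with the length trend removed) rose. Uba6 was at 0.38 without control mouse 1 and at 1.17 without control mouse 2. Of 12 substrate delivery genes 5 were higher, led by Ube4b (1.21) and Ubqln4 (1.15), and 3 lower, led by Ubqln2 (-0.58) and Ufd1 (-0.43, 0.07 with the length trend removed), whose calls did not hold without VA-free mouse 1 or mouse 3 or without control 2B. Ubqln2 was also not called without control mouse 2, and Ufd1 without control 1A or 2A (-0.26). Of 10 ubiquitin ligases of muscle 4 were higher, led by Cblb (1.19) and Traf6 (0.80), and Stub1 was lower (-0.69), a call lost with the length trend removed (-0.14, edgeR adjusted p = 0.34).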

How the data were processed

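RNA of each mouse was amplified by the authors with a SMART-Seq v4 low-input kit and made into Nextera XT libraries. Per the labels, reads were checked with FastQC and pseudo-aligned with Kallisto 0.46.2 to GRCm38 (mm10) transcripts. The authors deposited estimated counts and TPM for 118489 transcripts in each library, without normalization between libraries. TPM is the same estimate scaled by transcript length to a fixed total, so it keeps no depth.

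Here 116816 transcripts were joined to Ensembl 96 genes, and the others, with 0.647% to 0.756% of a library's counts, stayed out of all steps. Counts were summed per gene, libraries of a mouse were added and the sums rounded to whole numbers. The 3 VA-free and 2 control mice were compared with edgeR 4.0.16 (R 4.3.3) by its quasi-likelihood test with TMM normalization, its expression filter and diet as the only term. Benjamini-Hochberg adjustment ran over 17997 genes with a threshold of 0.05. CPM are TMM-normalized, and each SE was taken as |log2 fold change| over √F. The length trend is that of each mouse's counts with transcript length, removed as an offset. A deeper library has less counting error, but counting error covers no difference between animals.

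The alternatives were DESeq2 1.42.0, limma-voom and limma on log2(TPM + 1) or log2(TPM + 0.1) (limma 3.58.1, genes with a mean TPM of at least 0.5), other normalizations, filters and ways to treat libraries, a robust fit, a replicate block, and fits that omit 1 mouse or 1 library. A fit without 1 control mouse leaves a single control mouse, so its calls hold no spread between control mice. This limit also applies where calls are counted over such fits. The member genes, lists, motifs and the rule for named genes were chosen with earlier results of these data known. By that rule per-mouse values are given for the proteolytic subunits, activators, chaperones and the largest called rise and fall of each other class, and up to 2 called genes each way are named of each related list, most by their log2 fold change alone. A result on 1 gene of a related list is not reported here. Genes sharing sequence were found by words of 31 bases in the reference transcripts. The promoters printed were chosen after their motifs had been seen. The fits were tested on simulated data: fold changes and the length correction came back close to what was simulated. Part of the changed genes were not called, and more of the calls than the nominal 0.05 were wrong. The simulated fold changes and the number of calls this step required were relaxed after its first outcomes had been seen.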

Additional observations from a re-analysis of the deposited data

Results flagged for a closer look

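Among the 4 libraries of each diet, the level of a gene was marked where the highest or lowest library lay far from the other 3 by Dixon's test. Of 96 gene and diet groups tested, 14 were marked, whereas chance marks about 1 in 20 groups of 4 independent samples. Libraries of a mouse share an animal and all groups share the same libraries, so the marks are not independent. Of the 14, 9 were control 2A above the other control libraries. In control 2A Psmd11 was at 423 CPM, with the other 3 at 160 to 184 CPM, and Psmd2 at 444 CPM (252 to 272). There Psmd1 was at 325 CPM, Psmc5 at 310 CPM, Psmd12 at 268 CPM, Psma4 at 264 CPM, Psmd14 at 176 CPM, Psmd6 at 174 CPM and Psme3 at 152 CPM. The other control mark was Psmg4, low in control 2B at 18.5 CPM against 27.9 to 29.6 CPM. On the VA-free diet Psmb10 was at 28.4 CPM in VA-free 2A (21.4 to 22.3 in the others). Macrophage markers summed to 159 CPM in VA-free 2A against 24.7 to 74.1 CPM in the other VA-free libraries. The endothelial, Schwann and fibro-adipogenic sums were also highest in VA-free 2A among these libraries. The pericyte, tenocyte and myofiber sums were lowest there, and the part of these cell types was not tested. In VA-free 3A Psmb2 was at 141 CPM (133 to 134), Psmd13 at 92.3 CPM (87.3 to 87.9) and Psmg4 at 14.2 CPM (12.3 to 12.4). What set the levels of control 2A was not tested.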

How the results depend on the processing

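Of the 44 called genes, 31 kept the call without each mouse and each library, and 10 were lower past the test in all alternatives that gave a value, namely Psma2, Psma7, Psmb1, Psmb3, Psmb6, Psmb8, Psmb9, Psmb10, Psme2 and Psme2b. Over the 50 genes and 27 alternatives, 1145 values kept direction and side of the threshold, 148 no longer passed, 10 came to pass and 34 changed sign. The median of the 50 was -0.73 by library size alone, -0.21 with the length trend removed, -0.62 without control 2A and -1.05 without 2B. Over fewer genes it was -0.85 for the 45 at 10 CPM or more (-0.77 for these in the main comparison), -0.96 for 49 with 1 library per mouse (-0.78), and -0.35 and -0.36 for 48 by log2(TPM + 1) and log2(TPM + 0.1) (-0.79). Without a mouse it was -0.87 to -0.77. The count of lower genes was 16 with the length trend removed and 23 and 22 by TPM with pseudocounts 1 and 0.1. Higher genes numbered 5 and 5 by TPM, 1 with 8 libraries as samples, with 1 library per mouse and without control 1A or 2B, and 1 to 2 without a mouse. Over all genes 7459 were called, and 4476 without control 2B. The cause was not tested.

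Mice numbered alike did not deviate together (r = -0.022 and 0.0058). The deviations of the 2 control mice from their mean mirror each other, so these values cannot tell whether the numbers pair mice. With the replicate block 33 genes were lower, 1 higher and the median was -0.79, and 5242 of all genes were called. With the replicate block and the length trend removed 10 were lower, 1 higher, the median was -0.22 and 4105 of all genes were called.

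Signs changed as follows. The median of all genes tested was itself 0.19 with the length trend removed, with or without the block. By TPM with pseudocounts 1 and 0.1 it was 0.32 and 0.39. With the length trend removed the lid median was 0.10 (0.096 with the block too), Psmc3 0.019, Psmc6 0.31, Psmd11 0.11, Psmd13 0.38, Psmd6 0.11, Psmd8 0.092, Psmb4 0.23, Psmb11 -0.025 and Psmd9 0.34. With the block too, Psmc6 was 0.32, Psmd11 0.16, Psmd13 0.37, Psmd6 0.084, Psmd8 0.11, Psmb4 0.21, Psmd9 0.33 and Psmg3 0.013. By TPM with pseudocounts 1 and 0.1 Psmc6 was 0.032 and 0.033, Psmd1 0.34 and 0.35, Psmd13 0.27 and 0.28, Psmd6 0.048 and 0.048, Psmd8 0.075 and 0.075, and Psmd9 0.080 and 0.081. With 1 library per mouse Psmd2 was -0.043 and Psme3 -0.094. Psmd1 was 0.025 without control 2A, and without 2B Psmd2 was -0.080 and Psme3 -0.16.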

Other observations

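The 14 constitutive 20S subunits, which enter each particle in equal number, ranged 4.40-fold in mean TPM on the VA-free diet, from 113 (Psmb7) to 497 (Psmb6), and 7.15-fold on the control diet, from 143 to 1022. The 17 genes of the 19S cap ranged 3.26-fold, from 95.4 (Psmd14) to 311 TPM (Psmc3), on the VA-free diet and 4.23-fold, from 77.7 (Psmd3) to 329 TPM (Psmc3), on the control diet. TPM compares genes per length and says nothing of protein.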
